A study of Homo sapiens with 4 samples.

Results

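Chromatin accessibility was profiled by ATAC-seq in SK-N-BE(2)C cells, an established neuroblastoma cell line with amplification of MYCN. In this assay the Tn5 transposase inserts sequencing adapters into open chromatin, so that fragments pile up where DNA is not wrapped tightly. The control cells carried a non-targeting guide RNA, and the sgSNHG1 cells carried Cas9 with guides against SNHG1, the host gene of a group of small nucleolar RNAs whose spliced transcript is a long non-coding RNA. Each group had 2 replicates, whose reads the authors combined before calling peaks, so there was 1 peak list for each group and the spread between replicates could not be measured. The sgSNHG1 cells were expanded from sorted single cells, and the paper describes the control as a clone too. Differences between clones and differences that follow the guides therefore cannot be told apart. Peaks at or beside the SNHG1 start site were called in both lists, with fold enrichments of 5.71 in control cells and 6.04 in sgSNHG1 cells. A peak there does not measure the amount of SNHG1 RNA.

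The regions described here were 10578 accessible sites that were called in control cells, overlapped no sgSNHG1 peak and lay more than 3 kb from the transcription start site (TSS) of every annotated gene. They are called control-only distal peaks. They were drawn from 47610 control peaks and 90292 peaks in both lists together, and chromosomes 4, 9 and X were left out. The members were chosen by their measured peak calls, so that their presence in one list and absence from the other is the choice itself and not a finding. Of the 27428 distal control peaks on the chromosomes kept, these 10578 made up 38.6%. Over all control peaks at any position the share without an overlapping sgSNHG1 peak was 33.3%, and in the opposite direction 7021 of 24358 distal sgSNHG1 peaks, or 28.8%, had no overlapping control peak. On the chromosomes left out, 995 of 1657 distal control peaks on chromosome 4 were control-only (60.05%), against 531 of 1244 on chromosome 9 (42.7%) and 152 of 430 on chromosome X (35.3%). With 1 list for each group no difference between the conditions could be tested, and every interval given is a 95% interval (Wilson's for a share, Newcombe's for a difference of shares) that covers counting error over peaks only, while neighbouring peaks are not independent.

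Accessible regions far from start sites include enhancers, where transcription factors bind and from which they act on promoters that may be distant. In neuroblastoma, sets of such enhancers mark the adrenergic state, which is committed to the sympathetic lineage, and the mesenchymal state, which resembles migratory neural crest. Accessibility alone does not show that a region is an enhancer, and the nearest gene is a label of position rather than a known target.

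The summit base with 100 reference bases on either side is shown for 4 of the 6 control-only distal peaks with the highest fold enrichment, because these were among the clearest sites without a counterpart in sgSNHG1 cells. All are on the plus strand of GRCh38, and capitals mark exact matches on either strand. The words marked were TGACTCA and its variant with a central G for AP-1, AGATAA for GATA factors, CATCTG for one E-box form, CAGCTG for another, and the CTCF consensus.
Intergenic site with NXPH2 as nearest protein-coding gene, chr2:139055269-139055469: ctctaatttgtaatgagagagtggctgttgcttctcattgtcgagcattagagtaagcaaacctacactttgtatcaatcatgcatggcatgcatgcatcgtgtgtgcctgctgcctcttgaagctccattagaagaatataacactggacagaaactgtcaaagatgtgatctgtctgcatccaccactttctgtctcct
Site in an intron of DPP6, chr7:154156099-154156299: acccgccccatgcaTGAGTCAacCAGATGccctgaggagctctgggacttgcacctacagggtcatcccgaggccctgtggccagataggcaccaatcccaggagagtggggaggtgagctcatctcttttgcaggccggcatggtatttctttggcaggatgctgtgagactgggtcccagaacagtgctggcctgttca
Site overlapping an exon of PRIM2, chr6:57631948-57632148: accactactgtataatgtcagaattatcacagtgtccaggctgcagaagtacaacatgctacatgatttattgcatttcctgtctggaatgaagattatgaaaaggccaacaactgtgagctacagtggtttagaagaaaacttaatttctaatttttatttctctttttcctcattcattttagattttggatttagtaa
Site in an intron of EYS, chr6:65091708-65091908: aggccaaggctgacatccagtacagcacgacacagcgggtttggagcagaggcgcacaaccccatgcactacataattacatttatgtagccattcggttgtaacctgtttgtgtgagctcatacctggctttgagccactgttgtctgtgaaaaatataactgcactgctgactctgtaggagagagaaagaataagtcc

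The strongest of these stood at chr2:139055049-139055647, with 60 fragments at its summit against a local background of 3.26, a fold enrichment of 14.3 and a −log10 q of 49.7. Fold enrichment is the summit pileup plus 1 over the local background plus 1, as the peak caller writes it. The closest protein-coding start site was that of NXPH2, a neurexophilin, 274659 bp away, and the closest sgSNHG1 peak was 20422 bp away. The second, 5070 bp from UBP1, a transcription factor gene, reached 12.2-fold with 38 fragments over a background of 2.20. The site in DPP6, which encodes an auxiliary subunit of potassium channels, reached 11.1-fold with 51 fragments, and it was the only one of the 4 windows shown with both an AP-1 match and an E-box match. The PLPPR4, PRIM2 and EYS sites reached 11.0-fold, 10.9-fold and 10.7-fold. The windows at the NXPH2, PRIM2 and EYS sites held none of the 5 motifs marked. The next 6 sites by fold enrichment stood between 10.1 and 10.6, with NRP1 (a semaphorin co-receptor), IMMP1L, ISOC1, SORCS3, EYA4 and GPC5 as nearest protein-coding genes. None of the 12 lay within 5 kb of an sgSNHG1 peak, the smallest gap being the 5193 bp at UBP1.

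The highest summits of the control-only distal peaks assigned to DEFB115, ROBO1 and AGAP1, genes that gathered many of these regions, are shown in the same way.
Strongest DEFB115 site, chr20:29374690-29374890: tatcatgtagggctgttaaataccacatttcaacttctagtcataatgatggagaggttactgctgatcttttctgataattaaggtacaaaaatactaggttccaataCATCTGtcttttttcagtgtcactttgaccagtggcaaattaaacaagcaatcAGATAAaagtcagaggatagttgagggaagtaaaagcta
Strongest ROBO1 site, chr3:79810853-79811053: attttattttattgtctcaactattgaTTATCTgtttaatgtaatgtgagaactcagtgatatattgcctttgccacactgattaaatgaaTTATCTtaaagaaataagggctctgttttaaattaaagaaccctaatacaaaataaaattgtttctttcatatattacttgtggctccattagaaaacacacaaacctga
Strongest AGAP1 site, chr2:235630721-235630921: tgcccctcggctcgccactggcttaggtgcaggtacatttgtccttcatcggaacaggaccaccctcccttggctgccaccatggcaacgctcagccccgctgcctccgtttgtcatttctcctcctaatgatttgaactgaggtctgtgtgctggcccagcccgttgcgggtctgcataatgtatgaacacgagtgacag

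These windows ranged widely in base composition, from 27.4% GC at the ROBO1 site, which held 2 GATA matches, to 57.2% at the AGAP1 site, which held no marked motif. Their fold enrichments were 6.06 at DEFB115, 7.44 at ROBO1 and 8.13 at AGAP1, below those of the strongest sites above. Unlike those sites, the ROBO1 site had an sgSNHG1 peak close by. Its summit stood at −42.955 kb relative to the start site, and an sgSNHG1-only peak with a fold enrichment of 4.18 had its summit at −42.325 kb.

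Most control-only distal peaks were weak. Their median fold enrichment was 4.29 (quartiles 3.74 and 4.99), against 6.06 for the 16850 distal control peaks that overlapped an sgSNHG1 peak and 4.41 for the 7021 distal peaks of the sgSNHG1 list alone. At the summit they held a median of 16 fragments, with a lowest value of 10, and the shared sites held 27. Their median width was 200 bp, against 355 bp for shared sites and 138 bp for sgSNHG1-only sites. These strengths are given as a description, since they decide whether a peak is called. The lowest local background, which the peak caller sets from the whole library, was 2.20 fragments for control and 1.72 for sgSNHG1, with lowest summit pileups of 10 and 9. The part of this difference in coverage in the 38.6% was not tested.

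The control-only share fell steeply with peak strength. Of distal control peaks with a −log10 q under 3, 911 of 1028 were control-only (88.6%), and between 5 and 10 the share was 47.2% (4447 of 9422). It was 21.4% between 10 and 15, 2.85% between 20 and 30, and 0.361% at 50 and over, where 2 of 554 peaks were control-only. Thus 5731 of the members had a −log10 q of at least 5, 1284 had at least 10 and 82 had at least 20.

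**Figure D1:**
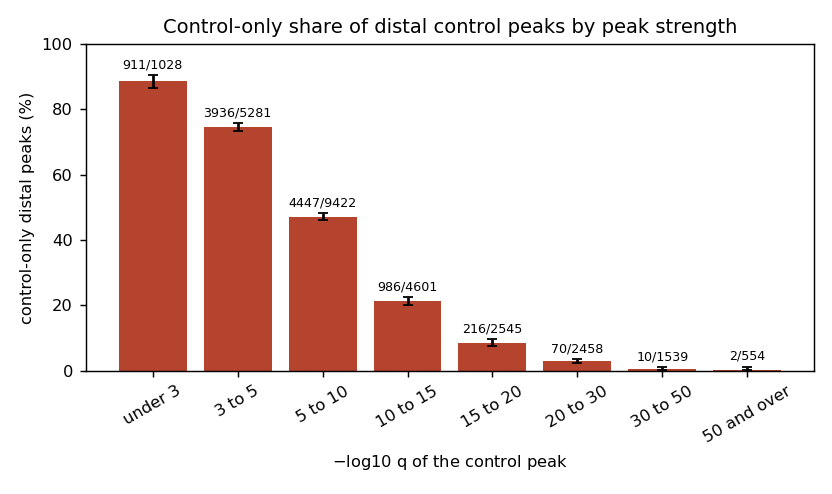
Percent of distal control peaks that were control-only, by −log10 q of the control peak, with bars at the share, error bars at the 95% Wilson interval and counts above each bar. The share falls from 88.6% under 3 to 0.361% at 50 and over.

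The regions were mostly well separated from sgSNHG1 peaks. The median gap to the closest sgSNHG1 peak was 15184 bp, 603 of 10578 (5.70%) lay within 500 bp of one, and 93.5% lay within 100 kb. At the border of the overlap rule the members and the shared peaks were alike in strength: 28 members with a gap of at most 10 bp had a median fold enrichment of 3.98, and 36 shared peaks that overlapped by at most 10 bp had 3.93. At the border of the distance rule, the closest member lay 3001 bp from the start site of TRIB1, and the closest peak left out lay 2999 bp from a start site. Shared distal peaks close to the control-only sites had almost the same fold enrichment in both lists, as did those farther away. Among 2968 shared peaks within 10 kb of a control-only distal peak enrichment in sgSNHG1 relative to control had a median log2 ratio of −0.0029 (quartiles −0.24 and 0.23), and among the 13882 farther away the median was −0.0168 (quartiles −0.26 and 0.22).

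Of the control-only distal peaks, 6142 lay in introns (58.1%), 3324 between genes (31.4%) and 1112 touched an exon of any annotated transcript (10.5%). Compared with shared distal peaks the intron share was higher by 3.39 points (interval 2.19 to 4.60) and the exon share differed by −3.96 points (interval −4.75 to −3.17), while the intergenic share differed by 0.57 points, an interval that held 0 (−0.55 to 1.70). Compared with sgSNHG1-only distal peaks the exon share was higher by 3.18 points (2.33 to 4.02) and the intergenic share differed by −4.08 points (−5.51 to −2.66). The median distance to the nearest start site was 23984 bp, against 21836 bp for shared and 24888 bp for sgSNHG1-only sites. The nearest start site belonged to a long non-coding RNA for 36.9% of the members, to a protein-coding gene for 27.7% and to a processed pseudogene for 17.2%, close to the 37.2%, 28.9% and 16.3% of shared distal peaks. The nearest protein-coding start site was a median of 73360 bp away. By chromosome the control-only share ran from 34.8% on chromosome 14 (interval 31.7 to 38.1) to 49.4% on chromosome 18 (126 of 255, interval 43.3 to 55.5), and no chromosome kept reached the 60.05% of chromosome 4.

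When each peak was assigned to the protein-coding gene with the nearest start site, the control-only distal peaks fell to 4978 of 17570 genes. Several peaks at one gene were common: 2226 genes had at least 2, 1204 had at least 3, 450 had at least 5 and 74 had at least 10. The 450 genes with 5 or more held 3257 of the 10578 regions. Of the 4978 genes, 2302 also had a distal peak found only in sgSNHG1 cells. Among 557 genes with at least 10 distal control peaks, the median control-only share was 40% (lower quartile 29.4%), near the 38.6% of all distal control peaks, so a large number of members mostly went with a large number of distal peaks in all. Only BEND5 and FOXC1 among those 557 had no control-only distal peak, with 12 and 10 shared ones.

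**Figure D2:**
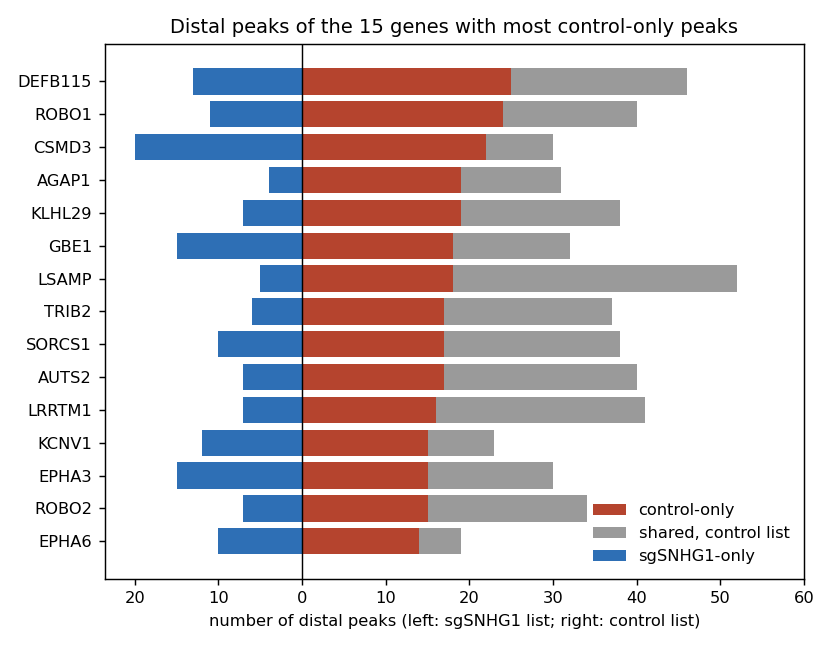
Numbers of distal peaks assigned to the 15 protein-coding genes with most control-only distal peaks, with control-only (red) and shared peaks (grey) of the control list to the right of 0 and sgSNHG1-only peaks (blue) to the left. AGAP1 has 19 control-only and 4 sgSNHG1-only peaks, whereas EPHA3 has 15 of each.

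Of the 15 genes with most of these regions, 4 were receptors of axon guidance. Which genes led depended on the assignment: by the gene body that holds the peak, only AUTS2, AGAP1 and ROBO1 stayed among the first 15. ROBO1, a receptor for Slit ligands that steers growing axons, had 24 control-only peaks among 40 distal control peaks and 11 sgSNHG1-only peaks. Of the 24 regions, 14 lay inside the gene body at chr3:78597239-79767998, their fold enrichments ran from 3.23 to 7.44 with a median of 3.99, and they spread from positions −465 kb to 1487 kb relative to the start site. Its 16 shared peaks had a median log2 ratio of 0.05 (sgSNHG1 over control). ROBO2, the neighbouring paralogue, had 15 among 34 with 7 sgSNHG1-only peaks, and a background ratio of −0.20 at its shared peaks. The promoters of ROBO1 and ROBO2 also carried a peak in control cells alone, with fold enrichments of 4.40 and 8.66. The ephrin-A receptors EPHA3 and EPHA6 had 15 among 30 and 14 among 19 distal control peaks, with 15 and 10 peaks in sgSNHG1 cells alone, and the promoter peaks of both were called in both lists. None of the 15 regions of EPHA3 lay in its gene body, and 6 of the 14 of EPHA6 did. All 4 receptor genes lie on chromosome 3.

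The other genes were of several kinds. CSMD3, a large transmembrane protein of the brain, had 22 among 30 distal control peaks (73.3%) with 20 in sgSNHG1 cells alone and 8 shared. LSAMP, an adhesion protein of neurons, had 18 among 52 (34.6%), LRRTM1, a synaptic leucine-rich repeat protein, had 16 among 41 (39.0%), and SORCS1, a sorting receptor of neurons, had 17 among 38 (44.7%). AUTS2, a gene of brain development, had 17 among 40 by nearest start site, and 22 of the control-only distal peaks lay inside its body, the most of any gene by that count. KLHL29 (19 among 38), GBE1, the glycogen branching enzyme (18 among 32), TRIB2, a pseudokinase (17 among 37), and KCNV1, a potassium channel subunit (15 among 23), completed the list with DEFB115. Of these regions, 9 lay in the body of KLHL29, 2 in that of GBE1, 1 in that of TRIB2 and none in that of KCNV1. DEFB115, a defensin gene, came first with 25 among 46, but none lay in the gene: its regions were 190 to 2709 kb away on chromosome 20.

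AGAP1, which encodes a GTPase-activating protein of endosomal traffic, had 19 control-only peaks among 31 distal control peaks (61.3%) and 4 sgSNHG1-only peaks, and 15 of the 19 lay in its body. From −261 kb to 299 kb relative to the start site, the fold enrichments ran from 3.36 to 8.13, the highest 137 kb into the gene. Its 12 shared distal peaks had a median log2 ratio of −0.06 by fold enrichment and 0.05 by local background. Its promoter peak had fold enrichments of 6.71 in control and 6.84 in sgSNHG1 cells. The megabase holding AGAP1 (chr2:235000001-236000000) had 27 control-only peaks among 45 distal control peaks, with 5 sgSNHG1-only peaks. The megabase of CCDC182 and MSI2 on chromosome 17 had as many control-only peaks (27 among 60, with 8 sgSNHG1-only). Other dense windows were those of KCNQ1 and CDKN1C on chromosome 11 (22 among 35, with 1 sgSNHG1-only peak), HHAT on chromosome 1 (21 among 42, with 2) and ABLIM1 on chromosome 10 (20 among 28, with 3).

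ABLIM1, an actin-binding LIM protein, had the highest share among the 557 genes with at least 10 distal control peaks, with 10 of 11 control-only and none in sgSNHG1 cells alone. All but 1 of the 10 stood in the gene between 19.6 and 86.4 kb from the start site, and the other stood 18.6 kb upstream. In order along the gene their fold enrichments were 6.55, 3.43, 4.31, 5.26, 4.03, 4.03, 5.22, 4.84, 4.10 and 4.94. No single site stood far above the others, and the single shared peak, 136 kb into the gene, had 7.28. A run of 6 followed each other within 52138 bp with no sgSNHG1 peak between them.

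Such runs of control-only distal peaks, with no other control peak between them, were mostly short. Of the 10578 regions 48.0% stood alone and 5504 stood in runs of 2 or more, with 94 runs of 5 or more. The longest had 10 regions, near FAM181B on chromosome 11 over 772498 bp and near SFMBT2 and PRKCQ on chromosome 10 over 845936 bp, with 5 and 3 sgSNHG1 peaks inside. Among runs of 7 or more, the most compact were at GLI2, a transcription factor of hedgehog signalling, with 7 in 35606 bp and 1 sgSNHG1 peak, and at CACNA2D1, a calcium channel subunit, with 7 in 60847 bp and no sgSNHG1 peak.

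**Figure D3:**
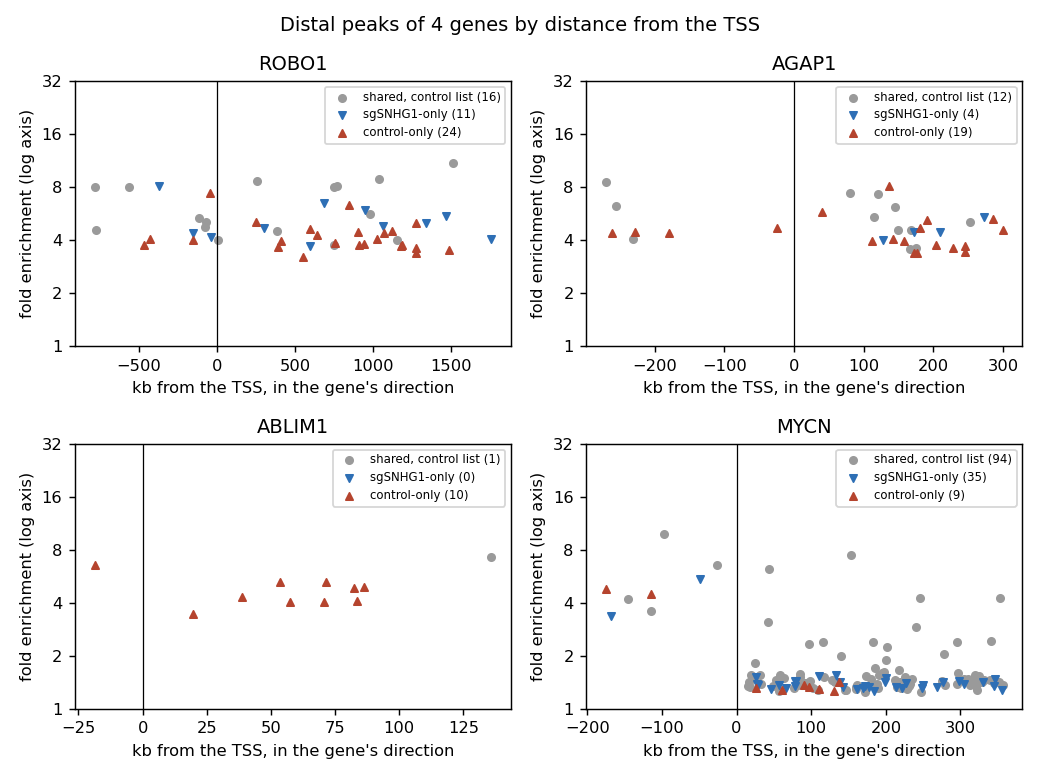
Distal peaks assigned to ROBO1, AGAP1, ABLIM1 and MYCN by distance of the summit from the start site (kb, in the direction of the gene) and fold enrichment (log axis), with control-only (red), shared (grey, control list) and sgSNHG1-only peaks (blue). The 10 control-only peaks of ABLIM1 stand between 18.6 kb upstream and 86.4 kb downstream, while most peaks near MYCN lie between 1 and 2 on the enrichment axis.

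MYCN, the amplified oncogene, had a low share, though genes such as CYRIA (5.77%), BEND5 and FOXC1 stood lower. MYCN had 9 control-only peaks among 103 distal control peaks (8.74%), with 35 in sgSNHG1 cells alone. The median fold enrichment of the 9 was 1.32 although their median summit held 499 fragments, so the local background was high there too. The part of this background in the low share was not tested. The 7 downstream of the gene had fold enrichments of 1.26 to 1.41, while the 2 upstream had 4.80 and 4.51, near the median of all members.

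Gene lists for neuroblastoma and neuronal biology were described by the share of their distal control peaks that was control-only, beside 38.6% for all genes. Some genes stand in more than 1 list. Axon guidance genes had 188 of 411 (45.7%, interval 41.0 to 50.6), and 31 of the 39 genes on the chromosomes kept had at least 1, against 28.3% of all protein-coding genes. That contrast is not one of control-only peaks alone. Any distal control peak was found at 36 of the 39 genes, against 7875 of all 17570, of which 4978 had a control-only one. Genes of synaptic adhesion and scaffolds had 157 of 351 (44.7%, interval 39.6 to 49.96), in 31 of 34 genes. Besides the ROBO and EPHA genes, examples were SEMA6A (12 among 23), NRP2 (11 among 18, with 2 sgSNHG1-only), EFNA5 (10 among 26), CNTN5 (14 among 29), CNTNAP2 (11 among 18) and TENM2 (10 among 15). The same lists had 110 of 338 and 105 of 310 distal sgSNHG1 peaks without an overlapping control peak, shares that were also above the 28.8% of all distal sgSNHG1 peaks. Classical cadherins and catenins had 42 of 102 (41.2%), with CDH18 at 11 among 19, and genes of the AP-1 family had 12 of 24 (interval 31.4% to 68.6%) with 3 sgSNHG1-only peaks, FOSL2 and JUN holding 4 and 3 of the 12.

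The lists of cell state lay at the background. Adrenergic transcription factors had 88 of 221 (39.8%, interval 33.6 to 46.4) and mesenchymal ones had 68 of 173 (39.3%, interval 32.3 to 46.7). Within the adrenergic list EYA1, a transcriptional cofactor, had 14 among 19 with 3 in sgSNHG1 cells alone, SOX11 had 11 among 33 with 11, ZNF536 had 11 among 17 with 5, MYT1L had 8 among 18 with 2, and PROX1 had 7 among 13 with 1. Within the mesenchymal list SOX9 had 13 among 36, TWIST1 9 among 19 with 2 in sgSNHG1 cells alone, ETS1 8 among 29, and TBX18 6 among 11 with none. The core regulatory circuitry, the transcription factors that hold the adrenergic state by binding one another's enhancers, had 21 of 137 (15.3%), of which MYCN supplied 9 of 103. Without MYCN the others had 12 of 34 (35.3%, interval 21.5 to 52.1): ISL1 had 4 among 12, GATA3 4 among 14 and TBX2 4 among 8. 1 gene of this list stands on a chromosome that was left out.

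Genes of neuroblastoma susceptibility had 50 of 236 (21.2%), or 41 of 133 (30.8%, interval 23.6 to 39.1) without MYCN. ALK, LMO1 and CCND1 had control-only distal peaks and none in sgSNHG1 cells alone. This was common: of all 4978 genes with a control-only distal peak, only 2302 also had a distal peak in sgSNHG1 cells alone. ALK, the receptor tyrosine kinase of familial neuroblastoma, had 8 among 15, LMO1, a transcriptional cofactor, had 7 among 14, and CCND1, a cyclin, had 3 among 5. The fold enrichments at ALK ran from 2.66 to 6.04 with 7 of the 8 in the gene, and those at LMO1 from 3.64 to 5.96 with 5 of the 7 in the gene. Their shared distal peaks had median log2 ratios of fold enrichment of 0.13 at both genes, and of local background of −0.03 and −0.05. NCAM1, an adhesion molecule of neural cells, likewise had 8 among 16 with no sgSNHG1-only peak. Its 8 shared peaks had a median log2 ratio of −0.20 by fold enrichment and −0.26 by local background. MYC had 7 among 25 with 10 in sgSNHG1 cells alone, and RET had 3 among 15. Catecholamine and chromaffin genes had 21 of 74 (28.4%, interval 19.4 to 39.5), with 5 among 11 at GCH1, the first enzyme of tetrahydrobiopterin synthesis. SOX and neuronal helix-loop-helix factors had 49 of 150 (32.7%). Corepressor and histone deacetylase genes had 24 of 70 (34.3%), held by 5 of 21 genes, among them HDAC4 (9 among 21) and HDAC9 (6 among 13).

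**Figure D4:**
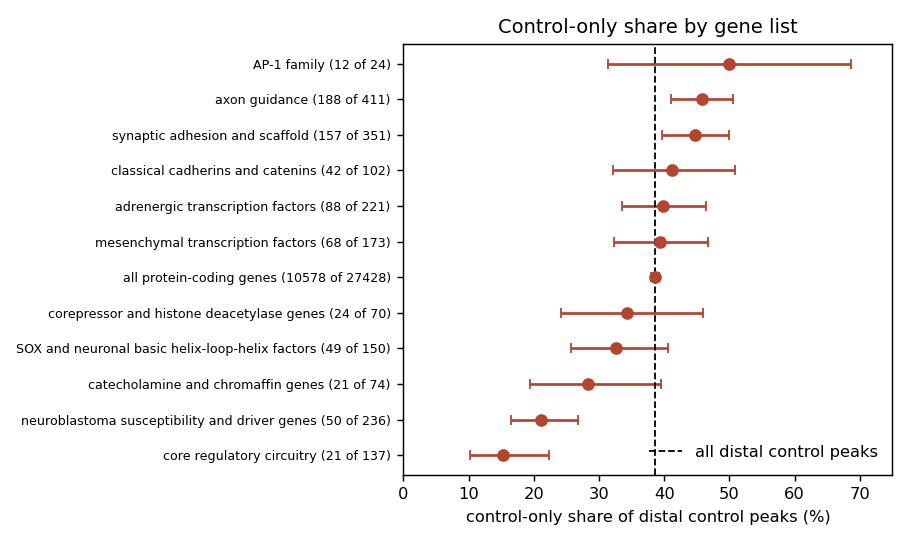
Control-only share of distal control peaks for 11 gene lists and for all protein-coding genes (percent, points with 95% Wilson intervals, counts beside each name), with the dashed line at 38.6%. The intervals of the core regulatory circuitry and of the neuroblastoma genes, both of which include MYCN, lie below the line, and those of axon guidance and synaptic genes lie above it.

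Promoter levels were set beside the number of control-only distal peaks, as medians without a test. The median log2 ratio of promoter fold enrichment, sgSNHG1 over control, was −0.06 in genes without any distal control peak, −0.07 in genes with shared distal peaks alone, −0.07 in genes with 1 control-only distal peak, −0.10 with 2 to 4 and −0.11 with 5 or more (311 genes with a promoter peak in both lists, quartiles −0.29 and 0.08). The ranges between quartiles overlapped throughout. These ratios are not corrected for coverage: fold enrichment adds 1 to pileup and background, and the lowest background was 2.20 for control and 1.72 for sgSNHG1. Over all shared distal peaks the median log2 ratio was −0.01 by fold enrichment. It was 0.04 by summit pileup divided by the lowest background of each list. The part of coverage in the promoter ratios was not tested. Promoter peaks were called in control cells for 76.7% of the genes with 5 or more control-only distal peaks and in sgSNHG1 cells for 71.1%. The corresponding values were 70.0% and 64.6% for genes with 2 to 4, and 65.0% and 60.4% for genes with 1. They were 65.4% and 60.6% for genes with shared distal peaks alone, and 60.7% and 57.3% for genes without any distal control peak. In points, the gap between the lists was smallest in genes without a distal control peak and largest in genes with 5 or more control-only ones. Promoter peaks were also least and most common in these 2 groups. Of the control promoter peaks, those without one in sgSNHG1 cells were 34 of 345 with 5 or more, 126 of 1243 with 2 to 4 and 182 of 1789 with 1. They were 188 of 1895 with shared distal peaks alone and 526 of 5884 without any, so genes with 5 or more were close to those with shared peaks alone.

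The sequence around the summits was not used in choosing the regions. In windows of 100 bp on either side, the median GC content was 50.2% for control-only distal peaks, 51.2% for shared and 46.8% for sgSNHG1-only distal peaks, and 42.8% at positions 10 kb from the control-only summits. With only peaks of a −log10 q under 10, the GC difference from shared sites turned to 0.50 points. Binding motifs were searched as exact words on both strands and are descriptions of sequence, not of binding. E-boxes are the sites of basic helix-loop-helix factors, and 2 of the 3 forms searched were found less often at control-only sites than in either other class. CATCTG was found in 25.5% of control-only, 31.7% of shared and 30.3% of sgSNHG1-only windows (differences −6.22 points, interval −7.31 to −5.13, and −4.77 points, interval −6.13 to −3.41), and in 13.9% of windows 10 kb away. CAGCTG was found in 17.9%, 23.5% and 23.5% (differences −5.65 points, interval −6.61 to −4.67, and −5.66 points, interval −6.89 to −4.43). The form CACGTG, bound by MYC proteins among others, went the other way against sgSNHG1-only sites, with 3.86% of control-only, 4.02% of shared and 2.95% of sgSNHG1-only windows (differences −0.17 points, interval −0.63 to 0.31, and 0.91 points, interval 0.36 to 1.44). With 50 bp on either side the latter difference was 0.29 points (interval −0.11 to 0.67). All 3 words are also counted in the looser E-box CANNTG, found in 73.3%, 77.2% and 79.4%.

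AP-1 words, bound by FOS and JUN dimers, were found in 4.54% of control-only windows, 6.81% of shared windows and 8.02% of sgSNHG1-only windows, against 3.44% of windows 10 kb from the control-only summits. The differences were −2.28 points (interval −2.82 to −1.72) and −3.48 points (interval −4.24 to −2.74). The homeobox word TAATTA was found in 5.11%, 6.03% and 7.76%, against 7.43%, 7.23% and 7.75% of windows 10 kb from the summits of each class. The SOX word ACAAT was found in 25.8%, 25.9% and 32.5%, against 34.4%, 33.7% and 36.4%. ACAAT was thus less common at summits than 10 kb away in every class, and TAATTA was more common at the summits of none beyond counting error. The GC box GGGCGG showed the reverse order between the classes found in a single list, with 8.93% of control-only and 5.93% of sgSNHG1-only windows (difference 3.01 points, interval 2.23 to 3.78), and 12.4% of shared windows. The CTCF consensus was found in 6.55%, 7.39% and 6.34%, far above the 0.681% of windows 10 kb from the control-only summits, and the difference between control-only and sgSNHG1-only windows had an interval that held 0 (−0.54 to 0.95). GATA words were found in 14.2%, 15.5% and 16.4%, and 13.3% of windows 10 kb from the control-only summits held one. The sign of the GATA and CTCF differences from shared sites turned when weak peaks were left out: with both classes limited to a −log10 q of 5 or more they were 0.13 points (interval −0.95 to 1.25) and 0.83 points (interval 0.02 to 1.67). The half-site word of nuclear receptors was more common at control-only than at shared sites (difference 1.61 points, interval 0.89 to 2.34). It was found in 10.6% of control-only and 10.1% of sgSNHG1-only windows, and in 13.3% of windows 10 kb from the control-only summits. For TEAD, RUNX and NFI words the difference from shared sites had an interval that held 0. ETS and CRE words were less common than at shared sites (differences −1.13 and −0.19 points).

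**Figure D5:**
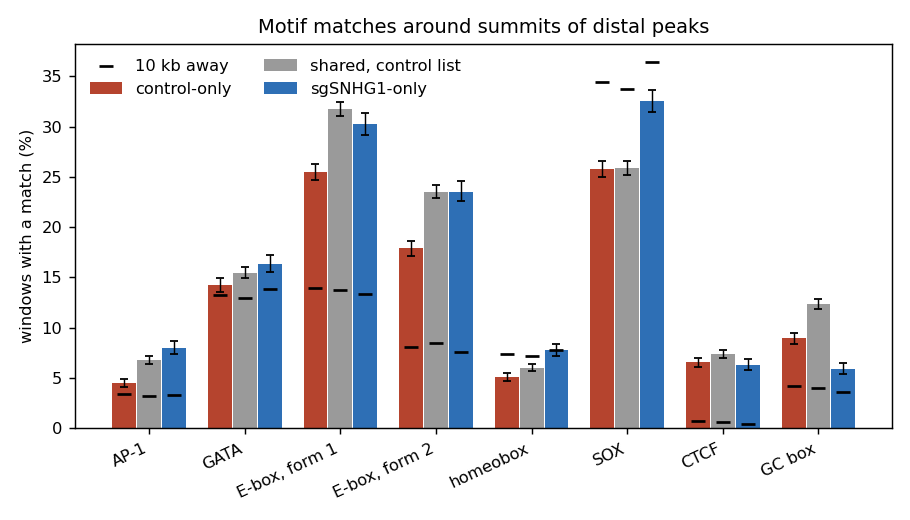
Percent of windows of 100 bp on either side of summits with a motif match in control-only (red), shared (grey) and sgSNHG1-only (blue) distal peaks, with 95% Wilson intervals and black dashes at the share 10 kb away (E-box form 1 is CATCTG, and CAGCTG is form 2). Control-only windows hold fewer matches to AP-1 and to these E-box forms than both other classes, for instance 4.54% against 6.81% and 8.02% for AP-1.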

How the data were processed

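Per the study's methods, the authors trimmed reads with cutadapt, aligned them to GRCh38 with BWA and removed duplicates, multiply mapped and mitochondrial reads. They shifted fragment ends for the Tn5 cut, combined the 2 replicates of each group and called peaks with MACS2 on paired fragments. The methods name no input library for this step. Versions are not given in the sources used here. The deposited lists hold, for each peak, a score (−log10 q times a constant, not used further), the fold enrichment (a ratio over local background), the −log10 p and the −log10 q.

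Peaks were compared in Python 3.11.15 with pandas 2.3.3 (an overlap of 1 bp counted as shared) and placed on GENCODE 44 genes. Start sites are those of gene records, and distances run from the nearest peak edge. Summit pileups and backgrounds were solved from fold enrichment and −log10 p (within 0.001) for all 10578 members. The reads per library were not analysed here, so depth is known only through these pileups. Overlap, pileup, interval and motif steps were tested on simulated data. The genes named were the 15 with most members, the 12 strongest members and list genes with at least 3 members. Genes named for runs, dense megabases, extreme shares or an absence of sgSNHG1-only peaks, and other list genes, were picked after their values were seen. Some sequences and 1 gene that these rules name are not reported here. The members, gene lists and motifs were chosen with earlier results of these data known.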

Additional observations from a re-analysis of the deposited data

How the results depend on the processing

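With 1 pooled peak list for each group, no replicate could be left out. No paired analysis was possible because the replicates were combined before peak calling and the lists carry no replicate columns. The 10578 control-only distal peaks and their 38.6% share of distal control peaks depended most on peak strength: a −log10 q of at least 5 left 5731 peaks (27.1%) and of at least 10 left 1284 (11.0%). The share was 53.9% when at least 50% of the control peak had to be covered by an sgSNHG1 peak, 36.4% when a gap of up to 500 bp counted as shared, 37.4% with windows of 250 bp around summits, 39.6% with the start sites of all transcripts and 39.8% with all chromosomes. With a limit of 10 kb from start sites it stayed inside its interval.

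Against protein-coding genes alone, 47.1% of the regions were intronic, 8.80% exonic and 44.1% intergenic, and the median distance was 73360 bp. With a −log10 q of at least 5, 11.5% were exonic and 30.3% intergenic, and the median distance was 22989 bp. Genes with 5 or more control-only distal peaks numbered 211 instead of 450 when peaks were assigned to the gene body that holds them, and 139 with a −log10 q of at least 5. By gene body, AUTS2 (22), AGAP1 (18) and DLG2 (18) led, and only AUTS2, AGAP1 and ROBO1 of the first 15 were also among the 15 by nearest start site. In 4 cases the difference from shared distal peaks changed sign, namely median GC, at 0.50 points with a −log10 q under 10 in each class, and, with a −log10 q of at least 5, GATA at 0.13 points, CTCF at 0.83 points and CACGTG at 0.14 points, whose reported interval held 0. The fewer AP-1, CATCTG and CAGCTG matches kept their direction against both other classes under all 3 alternatives. Under the same 3 the nuclear receptor half-site stayed more common than at shared sites, by 0.84, 1.61 and 1.59 points. Leaving out MYCN, an alternative chosen after seeing the data, took the core circuitry from 15.3% to 35.3% and the neuroblastoma genes from 21.2% to 30.8%.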
